A study of Mus musculus with 8 samples.

Results

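Among the genes encoding auxiliary subunits of voltage-gated calcium channels, *Cacna2d3* and *Cacnb4* were expressed at higher levels in dorsal than in ventral medial entorhinal cortex (MEC), which is written D>V, with V>D for the opposite. The 10 genes examined are the 4 beta subunit genes (*Cacnb1* to *Cacnb4*), the alpha2delta subunit genes *Cacna2d1* to *Cacna2d3* and the gamma subunit genes *Cacng2*, *Cacng3* and *Cacng8*, chosen by subunit class and matched by symbol among the 38553 genes of the deposited tables. Of these, 9 had enough alignments and a mean expression of at least 1 FPKM and were tested among 13674 genes, whereas *Cacng8* is listed at 0 in every library. FPKM is the number of fragments relative to exon length and to the fragments mapped in the library. Per the paper's methods, the value of a gene is the sum over its transcripts. The animals were male mice of the strain C57BL/6JolaHsd at 8 weeks of age, with no treatment or transgene named in the labels. A sagittal slice of 400 µm through the right MEC was taken from each of 13 mice, its dorsal and ventral regions were separated by microdissection, and tissue of 3 or 4 mice was pooled, which gave 4 dorsal and 4 ventral libraries. Each library is therefore a mixture of all cell types of the dissected tissue from several mice, in which fewer cells of a type and less RNA per cell cannot be told apart.

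The libraries held between 10780902 and 15359782 estimated fragments. The column headers of the expression table name a region that differs, for 4 of the 8 libraries, from the region whose mean they contribute to in the authors' comparison. Regions follow that comparison here, and dorsal 1 to 4 are the columns with the headers D1, V1, D2 and V2, and ventral 1 to 4 those with D3, V3, D4 and V4. This rests on matching values and not on labels. With the regions of the headers, limma called 0 of the 9 genes tested and 1 of all genes (721 of 13674 at an unadjusted p under 0.05). The 4 libraries on which both sources name the same region are dorsal 1 and 3 and ventral 2 and 4. With these alone it called 0 genes (1240 of 13661 at an unadjusted p under 0.05). With the regions used here, 2191 of 13674 genes (16%) were at an unadjusted p under 0.05. In the 4 libraries the log2 fold change was −0.50 for *Cacna2d3* and −0.35 for *Cacnb4*, against −0.53 and −0.48 in all 8.

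High voltage-activated calcium channels consist of a pore-forming alpha1 subunit together with a cytoplasmic beta subunit, which promotes surface expression and sets gating, and an extracellular alpha2delta subunit, which promotes trafficking and presynaptic localization. The gamma subunits *Cacng2* (stargazin), *Cacng3* and *Cacng8* act mainly as transmembrane AMPA receptor regulatory proteins (TARPs), which traffic AMPA receptors to synapses and slow their gating. In cortex these proteins shape transmitter release, dendritic calcium entry and fast excitatory transmission, and *Cacna2d1* and *Cacna2d2* encode the binding sites of gabapentin.

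The sequence upstream of the start site of *Cacna2d3* is shown because the gene had the largest difference of the 9 genes tested. It is the 250 bases before the RefSeq start on GRCm38.p6, at chr14:29721865-29722114, read 5′ to 3′ on the minus strand on which the gene lies, with the GC box (GGGCGG on either strand) in capitals.
Cacna2d3: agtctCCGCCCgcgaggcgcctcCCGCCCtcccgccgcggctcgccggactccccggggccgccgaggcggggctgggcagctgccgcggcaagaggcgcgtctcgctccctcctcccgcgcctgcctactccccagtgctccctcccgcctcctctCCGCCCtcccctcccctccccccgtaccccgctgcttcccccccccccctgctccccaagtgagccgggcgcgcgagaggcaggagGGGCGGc
The window holds 4 copies of the GC box, which occurs in 32.7% of the 32851 RefSeq windows of this length. G and C make up 80% of it, with 30 CG dinucleotides, against a median of 52.4% and 6 over all windows. *Cacnb4* has 3 RefSeq starts, and the windows before all of them lie within the gene as GENCODE M21 draws it, the most upstream one 438 bases inside the gene's 5′ end and partly in its first exon, so none is shown. From the most upstream to the most downstream, these windows hold 6, 0 and 0 copies of the GC box, counting overlapping ones, with 37, 23 and 4 CG dinucleotides and 79.6%, 71.2% and 48.8% G and C. The letters of a TATA box (TATAAA, in 12.4% of windows), a cyclic AMP response element (TGACGTCA, in 1.55%) and an E-box (CACGTG, in 6.02%) were not found in any of the 4 windows on either strand. These matches describe letters in the windows and do not identify binding sites.

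Expression of the 9 genes spanned more than an order of magnitude. In dorsal MEC the mean FPKM was highest for *Cacnb4* (135), followed by *Cacng3* (58.5), *Cacna2d1* (47.8), *Cacna2d3* (43.6), *Cacnb2* (21.1), *Cacnb3* (20.5), *Cacnb1* (16.3), *Cacng2* (15.9) and *Cacna2d2* (6.75). The ranges over the 4 dorsal libraries overlapped for the neighbors *Cacna2d1* and *Cacna2d3*, *Cacnb2* and *Cacnb3*, and *Cacnb1* and *Cacng2*, and were apart for the other neighbors in this order. In ventral MEC *Cacnb4* (96.5), *Cacng3* (56.1) and *Cacna2d1* (43.3) again led. *Cacna2d3* (29.8) there lay below *Cacna2d1* without overlap and overlapped with *Cacnb3* (25.0), which lay above *Cacnb2* (19.7) without overlap. *Cacnb2* overlapped with *Cacnb1* (16.6), and *Cacnb1* with *Cacng2* (14.1). *Cacna2d2* (8.39) was again the lowest.

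**Figure D1:**
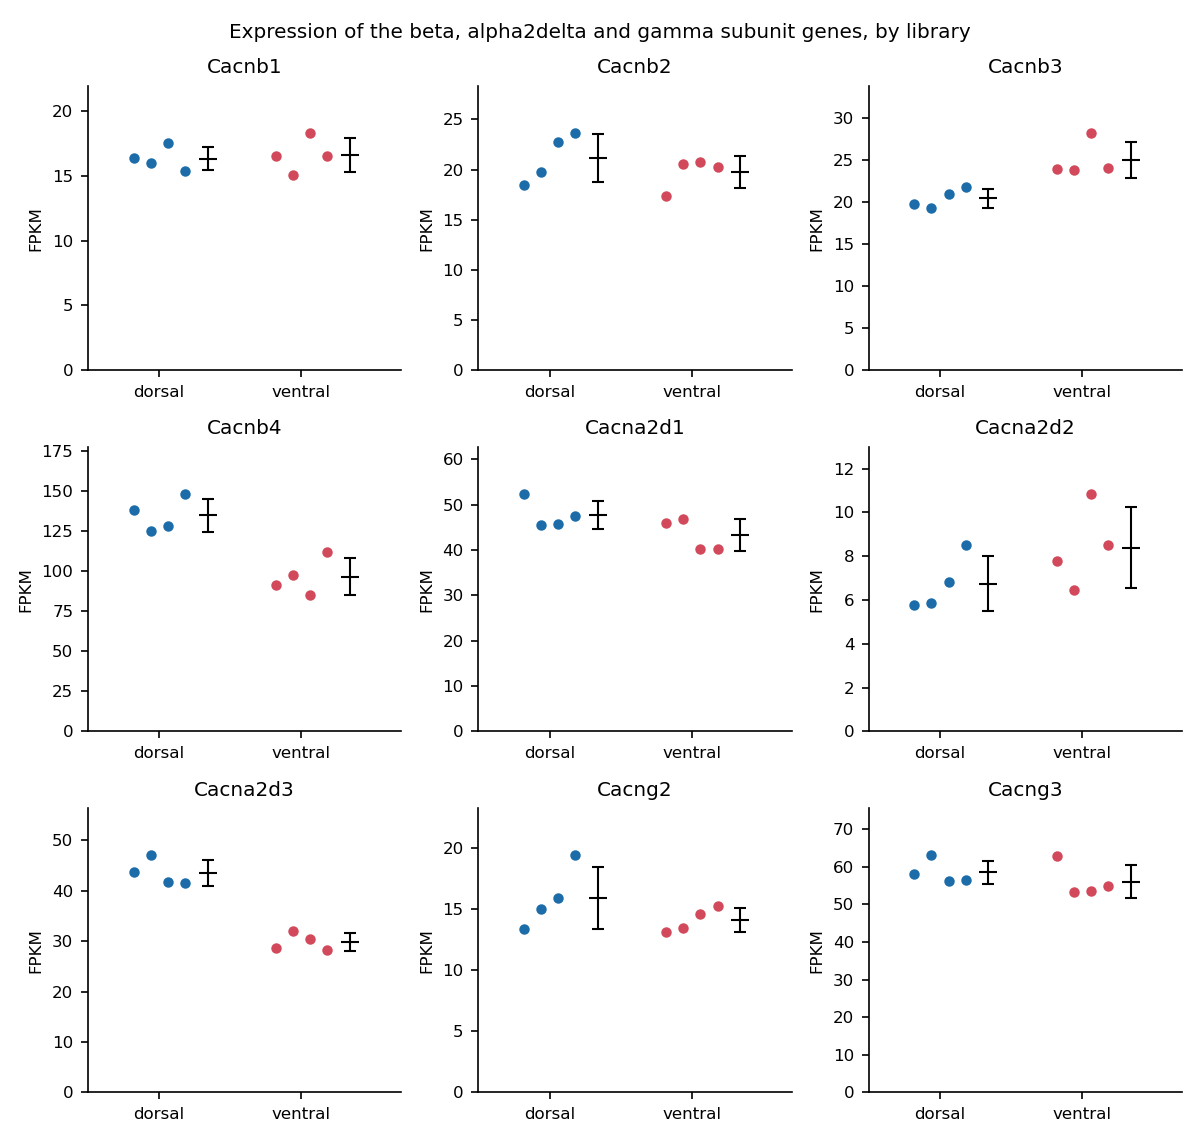
FPKM of the 9 genes tested in each of the 4 dorsal (blue) and 4 ventral (red) libraries, each panel with its own axis from 0; the black mark and bar give the mean and SD of a region. The ventral libraries lie below all dorsal libraries for *Cacnb4* and *Cacna2d3* and above them for *Cacnb3*, and the regions overlap for the other 6 genes.

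To ask which of these genes differ between the regions, log2(FPKM + 1) was compared with limma over all 13674 genes, and calls needed a p under 0.05 after Benjamini-Hochberg adjustment together with a difference of at least 20% in mean FPKM. Of the 9 genes, 2 were D>V and 0 were V>D, where 2.15% of all genes tested were D>V and 1.45% were V>D. At an unadjusted p under 0.05, limma counted 3 of the 9 genes, namely *Cacna2d3*, *Cacnb4* and *Cacnb3*, beside 16% of all genes tested. The median log2 fold change of the 9 genes was −0.09 against −0.01 for all genes tested. With edgeR on the estimated fragments, which differs from the limma fit in unit, model and scaling together, 2 of the 9 were D>V and 2 were V>D, where 3.43% and 2.86% of all genes tested were called in these directions. The fragment values of a gene do not include the division by transcript length that makes up FPKM. In FPKM, every ventral library lay below every dorsal one for 2 genes (6.17% of all genes tested) and above for 1 (4.95%). In CPM, the estimated fragments scaled to a total of 1000000 per library, this held for 2 genes in each direction (4.78% and 7.3%).

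**Figure D2:**
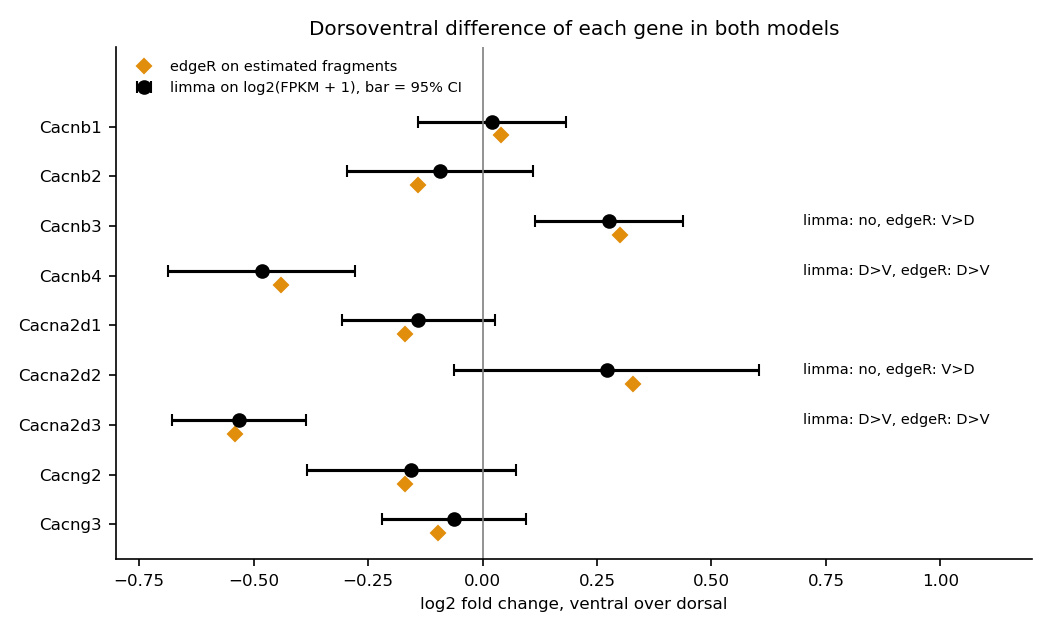
Log2 fold change, ventral over dorsal, of the 9 genes tested, from limma on log2(FPKM + 1) (black, bar = 95% confidence interval) and from edgeR on estimated fragments (orange), with the calls of both models at the right where either made one. The estimates of the models lie on the same side of 0 for every gene shown, with *Cacna2d3* (−0.53) and *Cacnb4* (−0.48) lowest by limma.

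The beta subunit gene *Cacnb4*, which encodes the most abundant transcript of its class here and is mutated in the lethargic mouse, was D>V. Its FPKM was 138, 125, 128 and 148 in dorsal 1 to 4 and 91.6, 97.5, 85.1 and 112 in ventral 1 to 4. Every ventral library lay below every dorsal library. Mean FPKM fell by 28.4%, from 135 ± 10.4 (SD, n = 4) to 96.5 ± 11.4 (SD, n = 4). The log2 fold change was −0.48 (SE 0.09, 95% confidence interval −0.69 to −0.28, limma adjusted p = 0.0176), and edgeR gave −0.44 (adjusted p = 0.000884). The limma call was lost without dorsal 1 (adjusted p = 0.0513), dorsal 4 (0.0511) or ventral 1 (0.0636), while edgeR called the gene in all 8 fits that left out 1 library. Over 1433 bases, exons of *Cacnb4* (chromosome 2, 52428320 to 52676831 in GRCm38, minus strand, 8963 exonic bases) share positions with *A430018G15Rik* on the opposite strand. That gene had a mean FPKM of 42.8 in dorsal and 30.2 in ventral MEC, and the sources used here do not say that strand was kept, so how fragments of the shared positions divide between this pair is uncertain.

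*Cacnb3*, a beta subunit gene of neuronal N-type and L-type channels on chromosome 15 (98630840 to 98644529), had an FPKM of 19.8, 19.4, 21.0 and 21.8 in dorsal 1 to 4 and of 23.9, 23.9, 28.2 and 24.1 in ventral 1 to 4. Every ventral library lay above every dorsal library, with ventral 3 the highest. The dorsal mean was 20.5 ± 1.10 (SD, n = 4) and the ventral mean 25.0 ± 2.12 (SD, n = 4). The log2 fold change of 0.28 (SE 0.07, 95% confidence interval 0.11 to 0.44) missed the threshold in limma (adjusted p = 0.0707). On the estimated fragments, which were 61.7 to 65.9 CPM in dorsal and 74.5 to 90.9 CPM in ventral libraries, edgeR called the gene V>D, with a log2 fold change of 0.30 (adjusted p = 0.0198). That call was kept in 5 of 8 fits that left out 1 library and lost without dorsal 1 (adjusted p = 0.0604), dorsal 2 (0.0852) or ventral 3 (0.0623).

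*Cacnb1*, best known as the beta subunit of the skeletal muscle channel and also expressed in brain, and *Cacnb2*, the main cardiac beta subunit, were not called by either model. *Cacnb1* ranged from 15.4 to 17.5 FPKM in dorsal and from 15.1 to 18.3 FPKM in ventral libraries, with a log2 fold change of 0.02 (95% confidence interval −0.14 to 0.18, limma adjusted p = 0.932). *Cacnb2* ranged from 18.5 to 23.6 FPKM in dorsal and from 17.3 to 20.8 FPKM in ventral libraries, with a log2 fold change of −0.09 (−0.30 to 0.11, limma adjusted p = 0.699). The regions overlapped for both genes. Summed over the 4 beta subunit genes, FPKM was between 180 and 209 in dorsal and between 149 and 173 in ventral libraries. Within this sum *Cacnb4* made up 69.9% ± 1.75 (SD, n = 4) dorsally and 61.0% ± 3.74 (SD, n = 4) ventrally, and *Cacnb3* 10.6% ± 0.347 and 15.9% ± 1.93, without overlap of the libraries for either gene. The share of *Cacnb1* rose without overlap as well (8.50% and 10.5%), although its mean FPKM was 16.3 and 16.6. Shares of the same sum depend on each other. The ratio of *Cacnb4* to *Cacnb3* FPKM was between 6.13 and 6.98 in dorsal and between 3.01 and 4.64 in ventral libraries. These shares and ratios are given as descriptions and carry no test of their own.

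**Figure D3:**
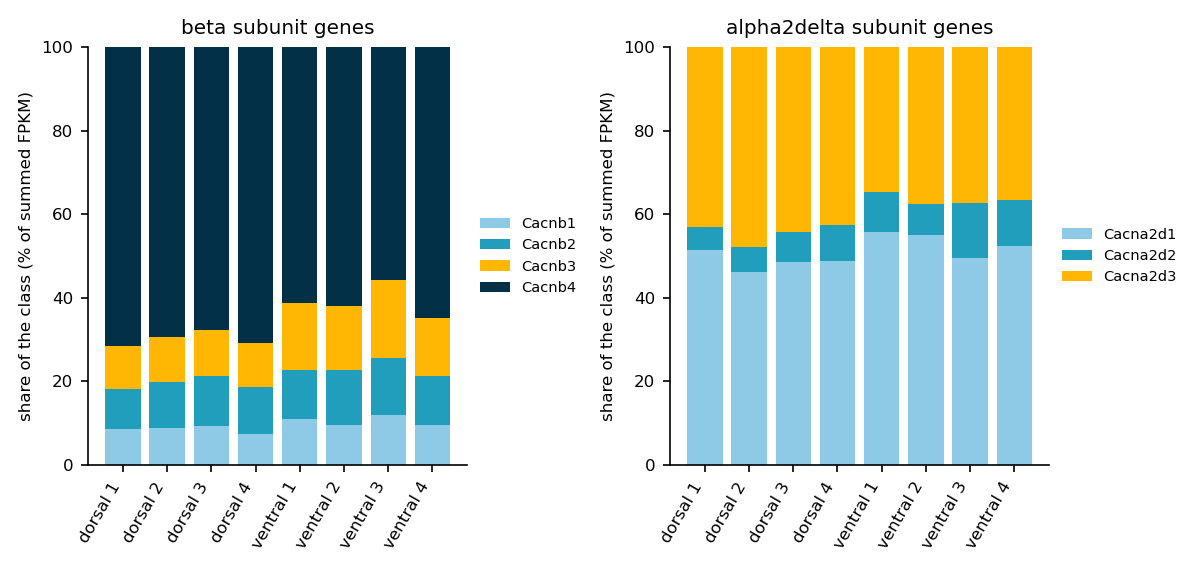
Share of each gene in the summed FPKM of its class (% of the sum, stacked to 100), for the 4 beta subunit genes (left) and the 3 alpha2delta subunit genes (right), in each library. *Cacnb4* takes 67.7 to 71.7% of the beta sum in dorsal and 55.8 to 64.8% in ventral libraries, and *Cacna2d3* takes 42.6 to 47.8% and 34.8 to 37.5% of the alpha2delta sum.

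Of the alpha2delta subunit genes, *Cacna2d3*, a neuronal gene with a role in pain and sensory processing, showed the largest difference of the 9 genes by limma. Its FPKM was 43.8, 47.0, 41.8 and 41.6 in dorsal 1 to 4 and 28.7, 32.0, 30.4 and 28.2 in ventral 1 to 4. The libraries of the regions were far apart, with the lowest dorsal library above the highest ventral one. Mean FPKM fell by 31.6%, from 43.6 ± 2.52 (SD, n = 4) to 29.8 ± 1.73 (SD, n = 4). The log2 fold change was −0.53 (SE 0.07, 95% confidence interval −0.68 to −0.39, limma adjusted p = 0.00216), and edgeR gave −0.54 (adjusted p = 5.48e-05). Both models called the gene in all 8 fits that left out 1 library, with limma adjusted p between 0.00313 and 0.0102. The gene spans 817 kb of chromosome 14 (28904943 to 29721864), and in GENCODE M21 no exon of another gene shares positions with its exons.

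*Cacna2d2*, the alpha2delta gene mutated in the ducky mouse and prominent in cerebellar Purkinje cells, was the lowest of the 9 genes and differed in outcome between the models. Its FPKM was 5.79, 5.89, 6.81 and 8.50 in dorsal 1 to 4 and 7.78, 6.44, 10.8 and 8.53 in ventral 1 to 4. The regions overlapped, and the limma log2 fold change was 0.27 (SE 0.15, 95% confidence interval −0.06 to 0.60, adjusted p = 0.428). In CPM the same libraries gave 36.7, 35.5, 38.9 and 36.5 in dorsal 1 to 4 and 53.1, 43.7, 49.7 and 42.6 in ventral 1 to 4. Every ventral library was then above every dorsal one, and edgeR called the gene V>D with a log2 fold change of 0.33 (adjusted p = 0.0155). The coefficient of variation over the dorsal libraries was 18.6% in FPKM and 3.78% in CPM, and over the ventral libraries 21.9% and 10.5%. The edgeR call was kept in 4 of 8 fits that left out 1 library, and the log2 fold change over all 8 was between 0.28 and 0.37. Without dorsal 2 (adjusted p = 0.0722, edgeR) or ventral 1 (0.0712) the adjusted p missed the threshold. Without dorsal 1 (0.0450) or ventral 3 (0.0470) it passed, and the call was lost because mean FPKM then differed by less than 20%.

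**Figure D4:**
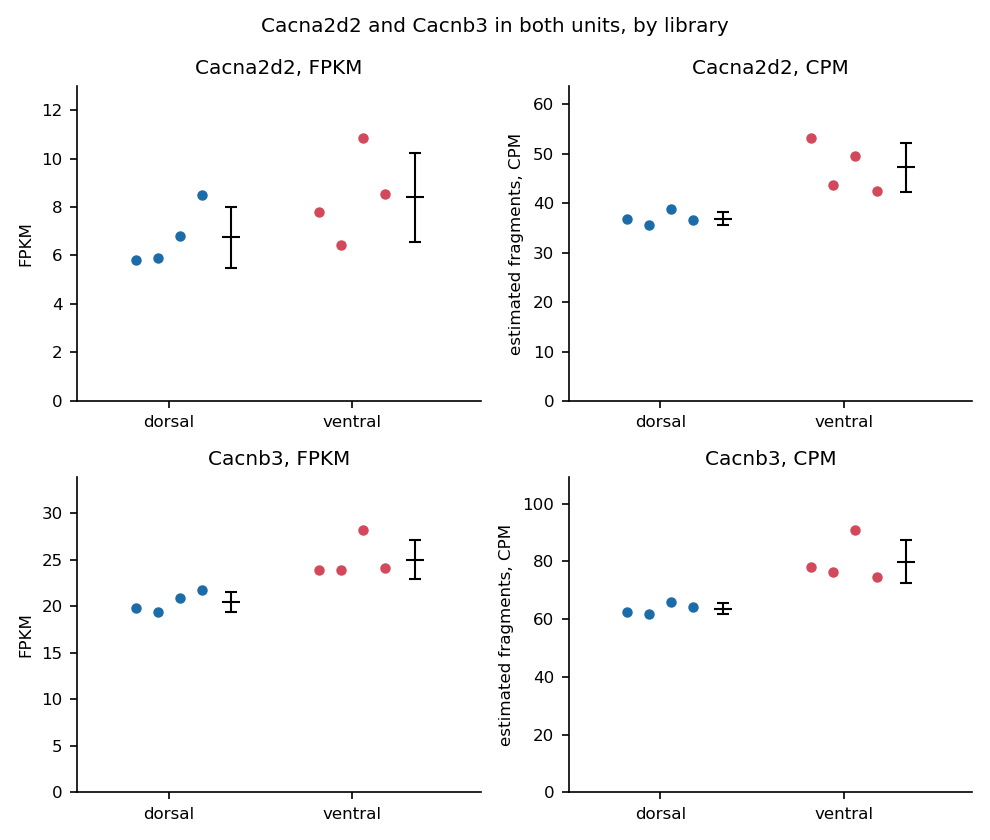
*Cacna2d2* (top) and *Cacnb3* (bottom) in FPKM (left) and in CPM of estimated fragments (right), for each dorsal (blue) and ventral (red) library, with the mean and SD of a region in black. The *Cacna2d2* libraries overlap in FPKM and are apart in CPM, where dorsal libraries reach 38.9 and ventral libraries start at 42.6.

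*Cacna2d1*, the broadly expressed alpha2delta gene of chromosome 5 (15934691 to 16374511), was not called. Its FPKM was 52.3, 45.5, 45.8 and 47.6 in dorsal 1 to 4 and 46.0, 46.9, 40.3 and 40.2 in ventral 1 to 4, with overlapping regions. The log2 fold change was −0.14 (95% confidence interval −0.31 to 0.03, limma adjusted p = 0.410), and edgeR gave −0.17 (adjusted p = 0.216). The ratio of *Cacna2d1* to *Cacna2d3* FPKM was between 0.968 and 1.19 in dorsal and between 1.33 and 1.60 in ventral libraries. The summed FPKM of the 3 alpha2delta genes was between 94.4 and 102 in dorsal and between 76.9 and 85.3 in ventral libraries.

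Neither TARP gene that could be tested was called by either model. *Cacng3*, the TARP most prominent in cortical pyramidal neurons, had 58.2, 63.0, 56.3 and 56.6 FPKM in dorsal 1 to 4 and 62.7, 53.2, 53.6 and 54.8 FPKM in ventral 1 to 4. The regions overlapped, and the log2 fold change was −0.06 (SE 0.07, 95% confidence interval −0.22 to 0.10, limma adjusted p = 0.744). *Cacng2*, the gene of the stargazer mouse, had 13.4, 15.0, 15.9 and 19.4 FPKM in dorsal 1 to 4 and 13.1, 13.5, 14.6 and 15.2 FPKM in ventral 1 to 4. Its regions overlapped as well, with a log2 fold change of −0.16 (SE 0.10, 95% confidence interval −0.38 to 0.07, limma adjusted p = 0.530). *Cacng3* exceeded *Cacng2* between 2.91-fold and 4.33-fold in dorsal and between 3.59-fold and 4.79-fold in ventral libraries.

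*Cacng8* is listed at 0 FPKM and 0 fragments in all 8 libraries, and this is not taken here as a measurement of absence. The gene lies near the start of chromosome 7 (3390683 to 3415648 in GRCm38), and all 17 genes listed from the start of that chromosome through *Cacng6*, from 3086001 to 3435667, are at 0 in every library. They include *Cacng7* and *Cacng6*, and also *Myadm*. Beyond this stretch, *Ndufa3*, a subunit gene of mitochondrial complex I, had a mean FPKM of 65.3. On the other 18 autosomes between 0 and 6 genes at 0 precede the first gene with fragments, and on chromosome X 58 do. What set these values to 0 was not tested, and no statement on *Cacng8*, *Cacng7* or *Cacng6* in MEC can be made from them.

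**Figure D5:**
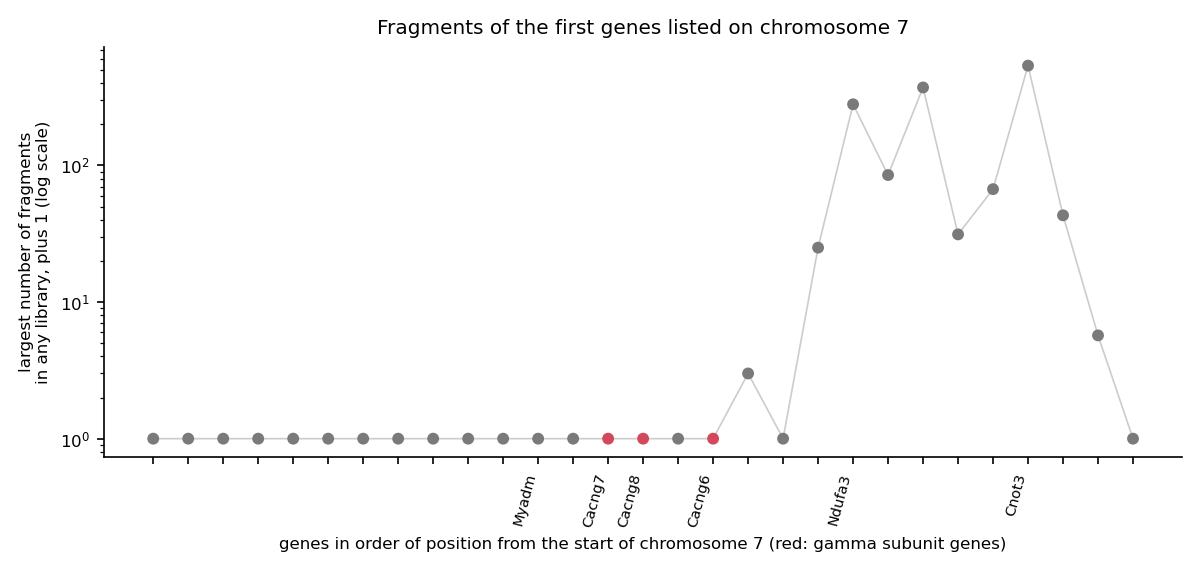
Largest number of estimated fragments in any of the 8 libraries, plus 1, on a log axis, for the first genes listed on chromosome 7 in order of position, of which a few are named, with the gamma subunit genes *Cacng7*, *Cacng8* and *Cacng6* in red. The first 17 genes have 0 fragments, and *Cnot3* reaches 536 further along.

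The other genes of the alpha2delta and gamma families outside that stretch were *Cacna2d4*, *Cacng1*, *Cacng4* and *Cacng5*. *Cacng4*, a TARP of early development and glia, was the only one of these 4 genes that could be tested, with 5.67 to 7.59 FPKM in dorsal and 7.11 to 7.36 FPKM in ventral libraries (log2 fold change 0.16, limma adjusted p = 0.444). *Cacng5* lay between 0.618 and 0.740 FPKM in dorsal and between 0.660 and 0.876 FPKM in ventral libraries, and the retinal gene *Cacna2d4* between 0.234 and 0.377 and between 0.134 and 0.246 FPKM. *Cacng1*, a skeletal muscle gene, is listed at 0 in every library.

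Among the pore-forming partners, 2 of 8 tested alpha1 genes were D>V and 3 were V>D by limma. *Cacna1a*, the P/Q-type pore subunit of presynaptic terminals, was D>V, falling from 47.0 ± 2.81 FPKM (SD, n = 4) dorsally to 37.8 ± 1.43 FPKM (SD, n = 4) ventrally (log2 fold change −0.30, limma adjusted p = 0.0240). *Cacna1i*, a T-type gene, was D>V as well (6.96 and 5.23 FPKM, log2 fold change −0.36, adjusted p = 0.0479). The R-type gene *Cacna1e* was V>D (59.3 and 71.4 FPKM, log2 fold change 0.26, adjusted p = 0.0337), as were the T-type genes *Cacna1g* (6.45 and 9.94 FPKM, 0.55, adjusted p = 0.0110) and *Cacna1h* (2.27 and 3.71 FPKM, 0.52, adjusted p = 0.0340). T-type channels are held not to need beta or alpha2delta subunits. The N-type gene *Cacna1b* (20.7 FPKM over all libraries, log2 fold change 0.04) and the L-type genes *Cacna1d* (6.42 FPKM, 0.01) and *Cacna1c* (5.38 FPKM, 0.28) were not called by limma, and edgeR called *Cacna1c* V>D (adjusted p = 0.00934). Summed over the 10 alpha1 genes, FPKM was between 147 and 158 in dorsal and between 156 and 167 in ventral libraries, so that the regions overlapped. For the beta genes, summed FPKM was between 1.15 and 1.36 times this sum in dorsal and between 0.915 and 1.11 times in ventral libraries. For the alpha2delta genes it was between 0.627 and 0.644 times and between 0.489 and 0.516 times. The alpha1 sum includes the T-type genes, and these ratios are descriptions without a test of their own.

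Of the AMPA receptor subunits on which TARPs act, *Gria4* was D>V (53.9 and 43.9 FPKM, log2 fold change −0.29, limma adjusted p = 0.0347) and *Gria1* was V>D (38.7 and 48.5 FPKM, 0.32, adjusted p = 0.0265). *Gria2*, which sets the calcium permeability of the receptor, had the highest mean of the 4 genes, at 209 FPKM, and a log2 fold change of 0.09, and *Gria3* had 95.2 FPKM and 0.07. Neither was called. Together *Cacng2* and *Cacng3* amounted to between 0.177 and 0.215 times the summed FPKM of the 4 *Gria* genes in dorsal and between 0.153 and 0.197 times in ventral libraries, with overlap.

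Among 17 tested genes for other AMPA receptor auxiliary proteins and assembly factors, 2 were D>V and 2 were V>D. The cornichon gene *Cnih3* (log2 fold change −0.31, limma adjusted p = 0.0336) and *Olfm3* (−0.41, adjusted p = 0.0371) were D>V. *Gsg1l*, a claudin-like auxiliary subunit related to TARPs, rose from 21.3 ± 2.23 (SD, n = 4) to 32.5 ± 3.23 FPKM (SD, n = 4), with a log2 fold change of 0.59 (adjusted p = 0.00779, limma), and the neuronal pentraxin receptor gene *Nptxr* was V>D too (0.43, adjusted p = 0.0185). The 3 most highly expressed of the others were *Olfm1* (187 FPKM, log2 fold change 0.10), *Frrs1l* (97.1 FPKM, −0.29, limma adjusted p = 0.0894) and *Abhd12* (60.3 FPKM, −0.15). EdgeR called *Frrs1l* D>V as well (adjusted p = 0.0147). Of 9 scaffold and kinase genes whose proteins bind TARPs, limma called 0, and *Dlg4* (PSD-95, 238 FPKM, log2 fold change 0.13), *Dlg2* (169 FPKM, 0.07) and *Camk2b* (107 FPKM, −0.01) were the highest. EdgeR called *Prkca* D>V (adjusted p = 0.00433), a gene named here after its values were seen. Of 9 tested genes whose proteins bind beta or alpha2delta subunits, limma also called 0, with *Rims1* (57.6 FPKM, log2 fold change −0.27, adjusted p = 0.0693), *Lrp1* (27.1 FPKM, 0.07) and *Rims2* (23.6 FPKM, −0.03) the highest. EdgeR called *Rims1* D>V (adjusted p = 0.00808) and *Thbs3* V>D (adjusted p = 0.0308), the latter again named after its values were seen. In each of these lists the medians of the log2 fold change lay between −0.01 and 0.15, beside −0.01 for all genes tested.

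Markers of several cell types differed between the regions, and their part in the differences above was not tested. All 7 oligodendrocyte markers were D>V, with a summed FPKM of 479 to 647 in dorsal and 256 to 365 in ventral libraries. Of 4 parvalbumin interneuron markers, 2 were D>V and 1 was V>D (57.1 to 65.2 and 41.9 to 50.1 FPKM). Of 6 markers of other GABAergic neurons 1, *Sst*, was V>D (223 to 291 and 309 to 399 FPKM). Also V>D were 2 of 5 tested leptomeningeal fibroblast markers (66.8 to 72.3 and 108 to 122 FPKM) and both tested markers of CA1 and subiculum (10.7 to 13.7 and 16.6 to 23.0 FPKM). In each of these 5 lists the summed FPKM of the regions did not overlap. In the CA1 and subiculum list, *Fn1* (10.8 and 16.6 FPKM) made up most of the sum, whose means were 12.2 and 19.7 FPKM. *Fibcd1* had 0.641 and 2.52 FPKM. *Pou3f1*, also listed there, averaged 0.696 FPKM over all libraries, too low to be tested. Its mean was lower in ventral than in dorsal MEC, and its libraries overlapped. *Sst* had a mean of 109 FPKM dorsally and 220 FPKM ventrally, and its whole list summed to means of 250 and 364 FPKM. Most of that list's difference was therefore that of *Sst*. *Gad2* (62.2 and 68.5 FPKM) was higher in every ventral than in every dorsal library, *Gad1* (60.9 and 54.9 FPKM) was lower, and *Slc32a1* (7.42 and 7.50 FPKM) overlapped. Of 5 glutamatergic neuron markers 1 was D>V (239 to 270 and 221 to 244 FPKM, overlapping), and of 3 MEC layer II markers 1 was D>V and 1 was V>D (104 to 123 and 86.7 to 101 FPKM, not overlapping). Of 6 endothelial and mural markers 1 was V>D (53.5 to 72.7 and 53.2 to 66.7 FPKM). None of the tested markers of oligodendrocyte precursors (18.5 to 20.7 and 20.8 to 21.3 FPKM, not overlapping), astrocytes (313 to 325 and 319 to 360 FPKM), microglia (29.2 to 32.5 and 31.7 to 34.3 FPKM), dentate gyrus (3.94 to 5.03 and 3.19 to 4.26 FPKM) or choroid plexus (4.24 to 5.37 and 3.50 to 6.09 FPKM) was called by limma. Of these, edgeR called the precursor marker *Pdgfra* V>D (adjusted p = 0.0123) and the dentate gyrus marker *Prox1* D>V (0.0105). It also called the astrocyte marker *Gfap* V>D (edgeR adjusted p = 0.0344), named here after its values were seen. By edgeR, 4 leptomeningeal, 2 other GABAergic and 0 endothelial and mural markers were V>D. In the other lists its counts were those of limma. In the dentate gyrus and choroid plexus lists 1 gene each was tested, *Prox1* (mean 3.98 FPKM) and *Kcnj13* (4.85 FPKM), and it made up most of the sum. The dentate gyrus markers *C1ql2* (0.132 FPKM, higher in every ventral than in every dorsal library) and *Dsp* (0.0587 FPKM) were far lower. So were the choroid plexus markers *Ttr* (0.0303 FPKM) and *Folr1* (0.0106 FPKM). The 4 cerebellar markers summed to at most 1.18 FPKM in any library, and none of them could be tested. No marker of any list was at 0 in all libraries.

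The genes whose expression across the 8 libraries was most like that of *Cacna2d3*, by Pearson's correlation of log2(FPKM + 1), were *Gbe1* (r = 0.994), *Epha4* (0.992) and *Tmem63a* (0.992). Those most like *Cacnb4* were *Rgs17* (0.996), *Slc1a1* (0.992) and *Eif5a2* (0.987). *Cacna2d3* and *Cacnb4* correlated with each other at r = 0.81, and each with *Cacnb3* at −0.86 and −0.83. These are descriptions over 8 libraries that share the difference between the regions, and the best matches were picked from all genes tested.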

How the data were processed

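The authors amplified 120 ng of RNA per library (RIN 7.1 to 8.5) with the Ovation RNA-Seq System V2. Per the labels and the paper's methods, CASAVA 1.8, TopHat2 2.0.8, Ensembl release 73 (GRCm38) and Cuffdiff 2 produced the deposited FPKM values and the deposited estimated fragment counts (expected counts, 9.36% of them not whole) of 38553 genes. Fragments were matched to FPKM columns by equal FPKM (100% of genes). For 1435 of 1435 genes the column means matched, within 0.1%, the regional FPKM in the authors' list, which set each library's region against 4 of the headers. The authors' fold changes and p-values and 2 columns of scaled fragments were not used.

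Genes that Cuffdiff 2 marked as testable and whose FPKM averaged at least 1 were compared with limma 3.58.1 (trend, R 4.3.3) on log2(FPKM + 1), which understates changes of low genes. EdgeR 4.0.16 (TMM, quasi-likelihood, fragments rounded) was named first in the design, with limma to replace it if the fragment table named no regions. It names none, so edgeR became an alternative, given beside limma. DESeq2 1.42.0 was an alternative. P-values, adjusted by the Benjamini-Hochberg method over 13674 genes, set the difference between regions against the spread between pools. Variation between single mice was not estimated. The models were also run on simulated counts with a fixed length per gene, which cannot address differences between FPKM and fragments. Depths of 10780902 to 15359782 fragments gave the subunit genes tested 420 to 17399.7 fragments per library.

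The genes, partner lists and 14 marker lists were chosen with earlier results of these data known. Named are all 10 genes and their relatives, the called genes and 3 highest others of each list, and the 3 genes most like each called one; exceptions are marked. Positions are those of GENCODE M21 and promoter windows those of RefSeq (2 of 2 genes matched), shown where they lie outside annotated genes. Alternatives covered the added constant, filters, scaling, tools, region assignment and each library left out. Summaries used Python 3.11.15 and plots matplotlib 3.10.9.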

Additional observations from a re-analysis of the deposited data

Results flagged for a closer look

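In 4 of 106 groups of 4 libraries checked, 1 library lay apart from the other 3 by Dixon's test at the 95% level, and chance flags about 1 group in 20. *Cacnb3* was highest in ventral 3, with 28.2 FPKM against 23.9 to 24.1 in the other ventral libraries. Without that library its log2 fold change was 0.22 (adjusted p = 0.135, limma). *Cacnb2* was lowest in ventral 1, with 17.3 FPKM against 20.3 to 20.8 in the others, and *Cacng3* was highest in the same library, with 62.7 FPKM against 53.2 to 54.8. The summed FPKM of the glutamatergic neuron markers was lowest in 1 ventral library, with 221 against 242 to 244 in the other 3.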

How the results depend on the processing

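Under the 17 alternatives that kept the assignment of libraries to regions, *Cacna2d3* was D>V each time (log2 fold change −0.57 to −0.48), and *Cacnb4* in all but 3 that left out 1 library. EdgeR with TMM, RLE or library totals and DESeq2 each called 2 V>D members, *Cacnb3* and *Cacna2d2*, where limma called 0; the cause was not tested. Over all genes tested, these 4 count models called 469, 475, 413 and 484 D>V and 391, 386, 429 and 395 V>D genes (limma 294 and 198), and rescaling to one total FPKM 195 D>V and 201 V>D genes. Leaving out each library gave 1 to 2 D>V members, 0 V>D members, 157 to 341 D>V genes (lowest without dorsal 2, 163 without ventral 1, 189 without dorsal 4) and 91 to 191 V>D genes (lowest without dorsal 2 or ventral 1, 121 without ventral 3, 123 without dorsal 3), and a log2 fold change of −0.024 to 0.063 for *Cacnb1*, below 0 without dorsal 4 (−0.0062) or ventral 3. With the headers' regions, 0 members and 1 D>V and 0 V>D genes were called, and the log2 fold changes of *Cacnb1* (−0.12), *Cacnb2* (0.086), *Cacnb3* (−0.049), *Cacnb4* (0.13), *Cacna2d2* (−0.062), *Cacna2d3* (0.035) and *Cacng2* (0.13) changed sign. With the 4 libraries on which both sources name the same region, 0 members and 0 genes were called in either direction. There *Cacnb1* changed sign (−0.10), and the other members tested kept theirs. *Cacna2d3* was at −0.50, *Cacnb4* at −0.35 and *Cacnb3* at 0.23, with *Cacnb2* (−0.006) and *Cacng2* (−0.024) near 0. EdgeR with TMM, which the design named first, became an alternative to limma only after seeing the data, and its fits that left out a library, the rescaling and quantile normalization were chosen after seeing the data. No paired analysis was possible because no source ties a dorsal library to the ventral library of the same mice. With 4 libraries a region, a gene that missed the threshold is not shown to be equal in both, and its confidence interval (such as −0.06 to 0.60 for *Cacna2d2* by limma) gives the range of differences left.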
